A study of Mus musculus with 4 samples.

Results

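The genes described are the nuclear-encoded subunits of the mitochondrial respiratory chain, taken from 2 Cuffdiff expression tables by symbol: rows naming a gene that begins with Nduf, with Sdh and a, b, c or d, with Uqcr, with Cox4 to Cox8 or with Atp5. The symbols took 92 of 22440 rows in the mammosphere table and 83 of 11708 rows in the knockdown table. Of the 92 rows, 83 were structural subunits and 9 were assembly factors or other genes that share a prefix. The subunits comprised 36 of complex I, 4 of complex II, 8 of complex III, 20 of complex IV and 15 of complex V in the mammosphere table, and 35, 4, 8, 13 and 14 of those complexes in the knockdown table. Ndufa4 and Ndufa4l2 were counted with complex IV, where the Ndufa4 protein resides.

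RNA was sequenced from MMTV-Myc cells, mouse mammary tumour cells with a Myc transgene under the MMTV promoter, that of the mouse mammary tumour virus. The transgene is shared by all 4 libraries. The sample labels used here do not say whether the cells are an established line. Mammosphere cells (day 20), grown unattached on low attachment plates with EGF, bFGF and Gem21 supplement, were set against bulk cells (day 0), grown with serum and insulin. The table header calls the bulk library D0MS. Cells with a lentiviral pLKO.1 hairpin against Cbx8 (sh68), a Polycomb chromodomain protein, were set against cells with a control hairpin. The control is named shLuc in its genotype label and shScr in its description, and cells with hairpins were kept in puromycin. The sources used here do not say whether hairpin cells grew as mammospheres. Each group was 1 library, so there were no replicates, no difference below has an estimate of biological spread, and no test was made. Values are FPKM, which divides fragments by transcript length and by library depth, and the counts behind them, hence the depth, are unknown.

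The respiratory chain passes electrons from NADH (complex I) or succinate (complex II) through ubiquinone to complex III, then through cytochrome c to complex IV, which reduces oxygen. Complexes I, III and IV pump protons across the inner mitochondrial membrane, and complex V, the ATP synthase, uses the gradient to make ATP. Apart from complex II, each complex also needs subunits made inside the mitochondrion from mitochondrial DNA, which these prefixes do not cover. Many nuclear subunit genes are known to be driven by NRF1, by ETS-type factors such as GABP and by YY1, and Myc is known to promote mitochondrial biogenesis.

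Promoter windows from 250 bases before to 50 after the start were available for 68 of the 83 subunits in the RefSeq set (GRCm38.p6, whereas the deposited tables use mm9). The letters CGCATGCG, the core of the NRF1 site, were present on either strand in 8 of the 68 windows (11.8%), against 1.91% of the windows of 27025 genes. CCGGAAG, an ETS and GABP core, was present in 15 windows (22.1%, against 9.12%), and AAGATGGC, a YY1 site, in 9 (13.2%, against 2.88%). At least 1 of these 3 was found in 28 subunit windows (41.2%), against 13.1% of all windows. TCAAGGTCA, a site of the ERR receptors, was present in 2 windows (2.94%, against 0.407%). The GC box GGGCGG (41.2%, against 35.9%) and the E-box CACGTG to which Myc binds (8.82%, against 7.24%) were about as frequent in subunit windows as elsewhere. A match describes letters and is not a site shown to be bound. Printed below, each 5′ to 3′ on the minus strand, are the windows of the complex III subunit with the largest difference upward in mammospheres (Uqcr10, chr11:4704295-4704594) and downward (Uqcrh, chr4:116075021-116075320). They are followed by the c-ring gene Atp5g2 (chr15:102670998-102671297), by Cox6a1 (chr5:115348909-115349208), which holds 3 kinds of match, and by Atp5k (chr5:108434350-108434649), the subunit whose level differed most upward between the tables. Capitals mark matches to any of the 6 motifs, and the Uqcr10 window holds none.
Uqcr10: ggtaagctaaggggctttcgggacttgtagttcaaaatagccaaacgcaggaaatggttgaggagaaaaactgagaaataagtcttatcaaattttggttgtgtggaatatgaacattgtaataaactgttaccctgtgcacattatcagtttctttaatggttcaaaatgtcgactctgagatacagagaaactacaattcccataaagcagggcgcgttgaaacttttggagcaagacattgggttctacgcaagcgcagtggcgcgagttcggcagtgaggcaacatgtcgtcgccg
Uqcrh: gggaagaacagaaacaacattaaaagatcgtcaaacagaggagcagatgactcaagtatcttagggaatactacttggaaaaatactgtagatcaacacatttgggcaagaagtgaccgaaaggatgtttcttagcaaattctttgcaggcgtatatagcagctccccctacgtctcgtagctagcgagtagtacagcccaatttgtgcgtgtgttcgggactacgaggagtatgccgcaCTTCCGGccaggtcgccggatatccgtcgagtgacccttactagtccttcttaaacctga
Atp5g2: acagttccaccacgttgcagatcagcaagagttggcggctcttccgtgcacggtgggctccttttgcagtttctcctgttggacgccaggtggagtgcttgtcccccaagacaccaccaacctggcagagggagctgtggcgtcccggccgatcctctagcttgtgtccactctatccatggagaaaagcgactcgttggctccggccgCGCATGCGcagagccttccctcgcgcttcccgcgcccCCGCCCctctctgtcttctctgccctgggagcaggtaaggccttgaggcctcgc
Cox6a1: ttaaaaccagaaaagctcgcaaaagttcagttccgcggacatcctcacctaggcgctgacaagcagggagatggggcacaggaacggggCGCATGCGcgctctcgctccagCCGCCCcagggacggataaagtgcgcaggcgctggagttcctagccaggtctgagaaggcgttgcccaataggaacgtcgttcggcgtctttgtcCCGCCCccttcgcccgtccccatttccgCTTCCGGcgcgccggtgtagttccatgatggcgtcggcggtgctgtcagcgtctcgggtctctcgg
Atp5k: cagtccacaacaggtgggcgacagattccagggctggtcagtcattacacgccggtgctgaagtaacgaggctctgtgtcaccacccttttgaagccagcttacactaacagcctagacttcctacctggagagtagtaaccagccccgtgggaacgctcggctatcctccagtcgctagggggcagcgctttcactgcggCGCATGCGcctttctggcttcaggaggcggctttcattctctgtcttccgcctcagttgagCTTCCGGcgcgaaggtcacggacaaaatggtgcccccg

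Subunit levels differed between the complexes. Among subunits at 5 FPKM or above in the higher library, the median complex I subunit was at 47.5 FPKM in mammospheres and 55.1 FPKM in bulk cells. For complex II it was 108 and 103 FPKM, for complex III 109 and 127 FPKM, for complex IV 155 and 158 FPKM, and for complex V 121 and 153 FPKM, mammospheres before bulk cells. Complex I medians were thus the lowest in both libraries, although complex I subunits themselves spanned 7.74 to 199 FPKM in mammospheres and 8.98 to 151 FPKM in bulk cells. Complex II was the tightest, with 74.6 to 160 FPKM in mammospheres and 74.9 to 153 FPKM in bulk cells. In the other table, the complex I median was 96.3 FPKM in the Cbx8 knockdown and 97.3 FPKM in the control shRNA library. The complex IV median there was 346 FPKM in the knockdown and 383 FPKM in the control, and the complex V median was 307 and 320 FPKM in the same order. The most abundant subunit of every library was Atp5b, the catalytic beta subunit of the ATP synthase. It stood at 923 FPKM in mammospheres and 925 FPKM in bulk cells, and at 1279 FPKM in the knockdown and 1420 FPKM in the control.

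**Figure D1:**
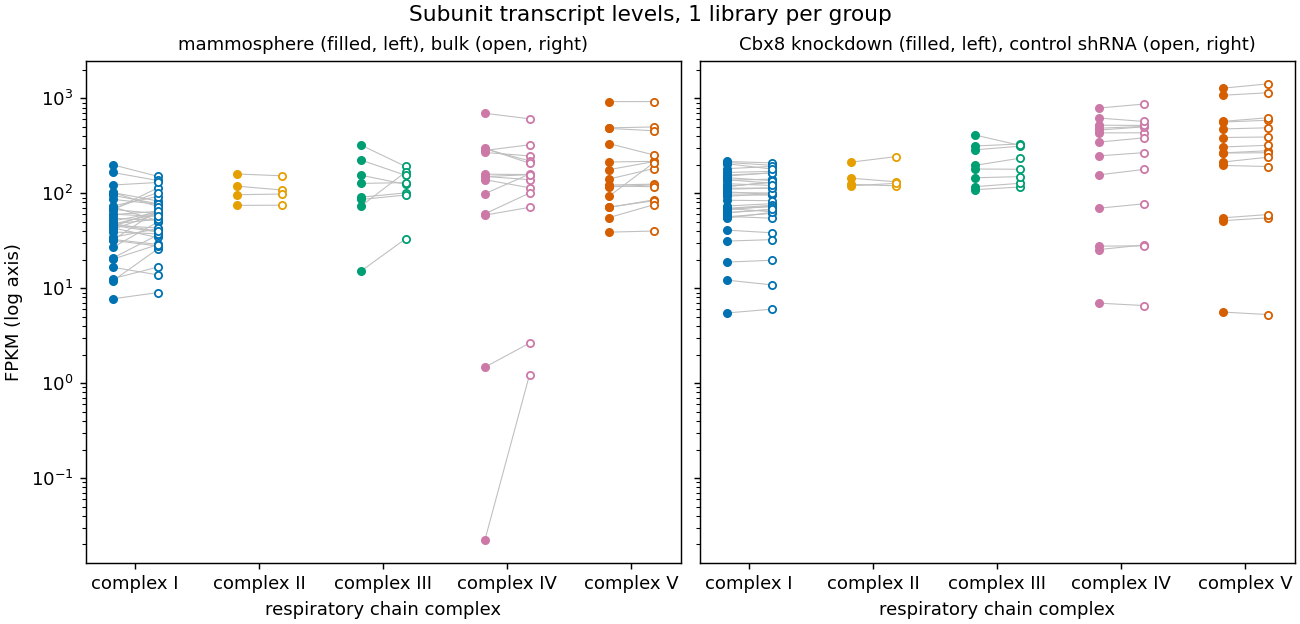
FPKM (log axis) of each subunit at 1 FPKM or above in either library, by complex, with mammosphere left of bulk and Cbx8 knockdown left of control shRNA. Lines join the values of 1 gene; they cross in the mammosphere panel, for example at complex III, and run almost level in the knockdown panel.

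The knockdown table was also searched for subunits that dropped over 10-fold. Within it, no subunit was even 1.5-fold lower in the knockdown than in the control library. Read as a drop between the separately scaled tables, only Atp5l, the membrane subunit g of the ATP synthase (mm9 chromosome 9, 44721330 to 44728825), passed. It was at 334 FPKM in mammospheres and 254 FPKM in bulk cells, but at 5.61 FPKM in the knockdown and 5.28 FPKM in the control, so its highest level was 59.6 times lower in the knockdown table. Among subunits with a row in both tables, no other lay near the limit: the next was Cox5b, 4.88 times lower in the knockdown table. Subunits without a row in the knockdown table could not be set against the limit. Among them were Atp5g2 (92.9 FPKM in mammospheres and 209 FPKM in bulk cells) and Ndufs5 (16.6 and 13.8 FPKM). Both stay in the mammosphere counts below. Atp5l was set aside and is in no fold change count or median below. The complex V level medians above leave out Atp5l too. Of its 445 distinct 100-nt transcript windows, 292 (65.6%) matched transcripts of 12 other genes with at most 2 mismatches, 11 of them annotated pseudogenes. No source used here states how reads with several possible origins were assigned, and the part of such matches in the low level was not tested. Ndufs3 (61.6%) and Uqcrb (54.4%) were the other 2 subunits with 50% or more of their windows matched elsewhere. Ndufs3 had nearly the same highest level in the knockdown table (ratio 0.908), and Uqcrb a higher one (ratio 3.52). Another 26 subunits had some matched windows and 54 had none. The highest level in the knockdown table over that in the mammosphere table had a median of 1.55 in the group with some matches and 1.48 in the group with none. Ranges were 0.205 to 9.79 and 0.598 to 4.40 for those groups.

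**Figure D2:**
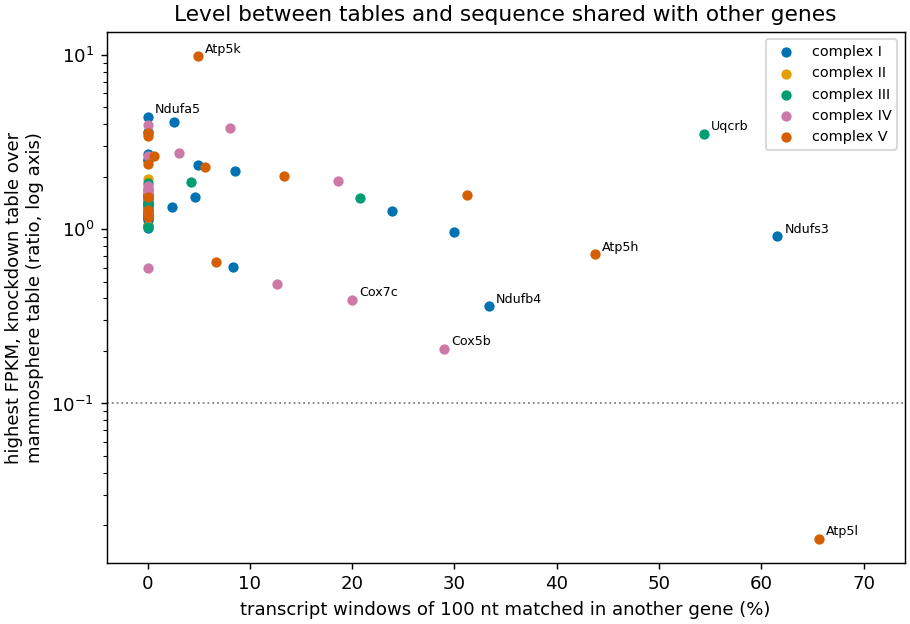
Share of each subunit's 100-nt transcript windows that match another gene (x axis, %) against its highest FPKM in the knockdown table over that in the mammosphere table (y axis, log scale), with the 10-fold limit dotted. Atp5l alone lies under the limit, at 65.6%, and Atp5k lies highest, at a ratio of 9.79.

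Between mammospheres and bulk cells the respiratory chain as a whole stood close to its bulk level while single subunits of the same complex parted. Of 76 subunits at 1 FPKM or above in either library, 32 were higher in mammospheres. The other 44 (57.9%) were lower, as were 65.3% of all measured rows. The subunits' median log2((FPKM + 1)/(FPKM + 1)) was -0.03, against -0.24 over all 11603 measured rows. Only Uqcr10 was at least 1.5-fold higher in mammospheres, where 9.86% of all measured rows were, and 11 subunits (14.5%) were at least 1.5-fold lower, where 30.7% of all measured rows were. Both shares of subunits lay under those of the whole table, and 47 of the 76 subunits (61.8%) stayed within 0.32 of bulk on the log2 scale, as did 37.0% of all measured rows and 36.3% of those at 20 FPKM or above. The subunits' interquartile range was 0.52 on the log2 scale and that of all measured rows 0.89. The authors had tested 72 of the 83 subunits, on 1 library per group. The share of all rows under their q limit is given here for neither comparison, so their q-values do not set the subunits apart. In the authors' deposited table no subunit had q under 0.05, and the lowest q was 0.174, for Atp5g2.

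The direction of these small differences depends on the zero that is chosen. Centring on the median of rows measured in both libraries moves every log2 value by 0.19 toward mammospheres. On that scale the subunit median was 0.16, 47 of 76 subunits were above 0, 7 were at least 1.5-fold higher and 8 lower. Among all measured rows on that scale, 15.0% were at least 1.5-fold higher and 23.4% lower. Calls over all rows moved in the same way, from 24.3% higher among all calls to 39.2%. Values below are on the uncentred scale unless called centred.

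The cultures also differed in cell type markers. All 8 leukocyte markers were lower in mammospheres, with a summed level of 0.611 FPKM against 382 FPKM in bulk cells, and Tyrobp and Fcer1g were at 0 in mammospheres. All 6 fibroblast markers were lower too, summing to 1.00 FPKM in mammospheres and 309 FPKM in bulk cells, with Lum at 0 in mammospheres, and both measured endothelial markers were lower (lists summing to 0.243 FPKM in mammospheres and 5.99 FPKM in bulk cells). Of 8 measured luminal epithelial markers, 7 were lower, and all 9 listed summed to 75.8 FPKM in mammospheres and 945 FPKM in bulk cells. The keratins Krt8 (5.14 FPKM in mammospheres and 334 FPKM in bulk cells) and Krt18 (58.2 and 570 FPKM) made up most of the sum. The adhesion molecules Epcam (0.0908 FPKM in mammospheres and 1.06 FPKM in bulk cells) and Cdh1 (0.0135 and 1.04 FPKM) were far lower than these keratins in both libraries. Myc itself was at 361 FPKM in mammospheres and 815 FPKM in bulk cells. The part of any of these in the subunit differences was not tested, and in such bulk RNA fewer cells of a type and less RNA per cell cannot be told apart.

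**Figure D3:**
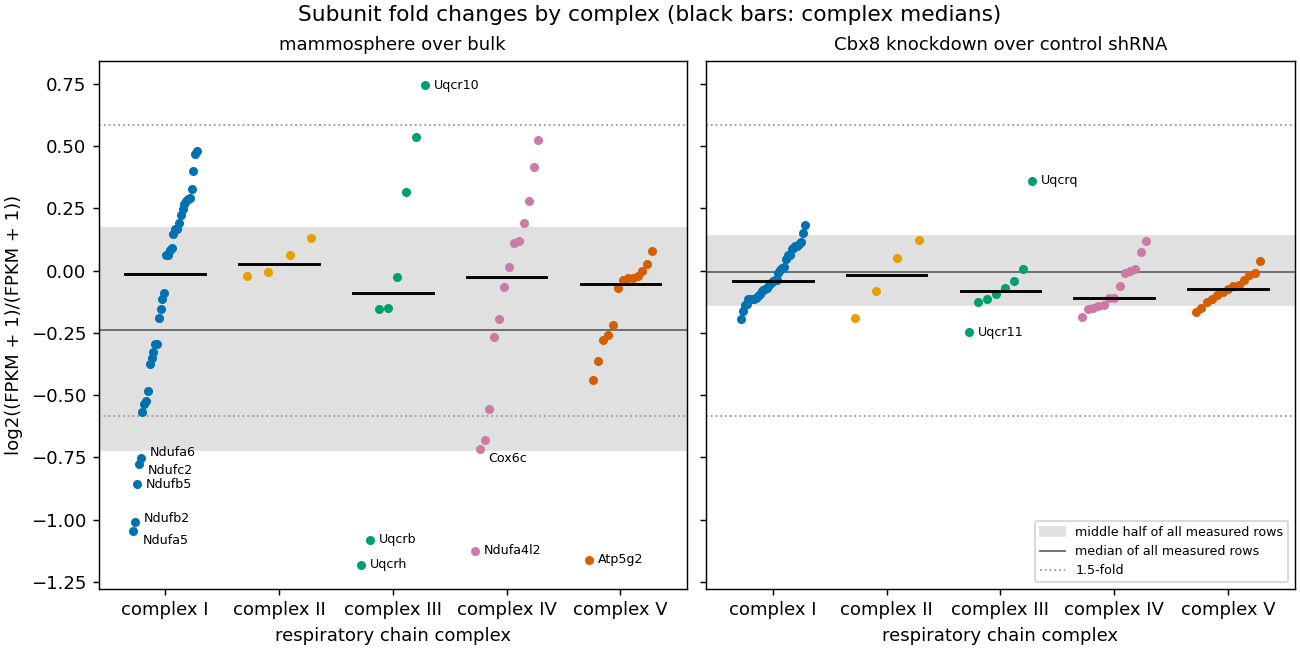
Log2 fold change of each subunit by complex, mammosphere over bulk (left) and Cbx8 knockdown over control shRNA (right), with complex medians as black bars. The grey band is the interquartile range and the grey line the median of all measured rows. Subunits spread from -1.18 (Uqcrh) to 0.74 (Uqcr10) on the left and from -0.25 (Uqcr11) to 0.36 (Uqcrq) on the right.

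Complex I, the NADH dehydrogenase, was evenly divided, with 18 subunits higher and 18 lower in mammospheres and a median of -0.01 (0.17 centred). None of its 7 core subunits, which carry the flavin and the iron-sulphur clusters, reached 1.5-fold. Ndufs7, which holds the last cluster before ubiquinone, was highest relative to bulk, at 102 FPKM in mammospheres and 72.6 FPKM in bulk cells (log2 0.48). Ndufs3 had 51.0 FPKM in mammospheres and 62.9 FPKM in bulk cells, and Ndufs1 47.7 and 53.2 FPKM in the same order. Ndufv1, which binds the flavin, had 59.5 FPKM in mammospheres and 64.6 FPKM in bulk cells. Ndufv2 and Ndufs8 differed by less, with log2 values of 0.08 and 0.09.

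All 5 complex I subunits at least 1.5-fold lower in mammospheres were accessory subunits, which surround the core. Ndufa5, attached to the matrix arm, was at 11.99 FPKM in mammospheres and 25.8 FPKM in bulk cells (log2 -1.05). Ndufb2, of the membrane arm, was at 32.1 FPKM in mammospheres and 65.8 FPKM in bulk cells (log2 -1.01). Both lay at less than 50% of their bulk level. The other 3 were Ndufb5 (27.0 and 49.7 FPKM), Ndufc2 (20.8 and 36.3 FPKM) and Ndufa6 (67.0 and 114 FPKM), mammospheres before bulk cells. After centring, Ndufa6 no longer reached 1.5-fold, at a log2 of -0.57, and the other 4 still did. At the upper end, Ndufb7 was at 71.9 FPKM in mammospheres and 51.7 FPKM in bulk cells (log2 0.47), and Ndufa2 at 199 and 151 FPKM in the same order (log2 0.40). Of the membrane arm Ndufb subunits, 3 of 10 (30%) were within 0.32 of bulk on the log2 scale, near the 37.0% of all measured rows. Of the Ndufa subunits, 8 of 13 (61.5%) were. The accessory subunit Ndufs5, at 16.6 FPKM in mammospheres and 13.8 FPKM in bulk cells, has no row in the knockdown table.

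Complex II, the succinate dehydrogenase that also serves the citric acid cycle, stood at almost the same level in both cultures. Sdha, the flavoprotein, was at 119 FPKM in mammospheres and 108 FPKM in bulk cells (log2 0.13). Sdhb, the iron-sulphur subunit, was at 74.6 FPKM in mammospheres and 74.9 FPKM in bulk cells (log2 -0.01). The membrane anchors Sdhc and Sdhd had log2 values of -0.02 and 0.06. All 4 lay between -0.02 and 0.13, and all 4 were above 0 after centring (median 0.21).

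Complex III, the cytochrome bc1 complex, held both the largest positive and the largest negative value among subunits at 5 FPKM or above, and both belonged to its small subunits. Uqcr10 (mm9 chromosome 11, 4601970 to 4604347) was at 322 FPKM in mammospheres and 192 FPKM in bulk cells (log2 0.74). Uqcrq, another small subunit, was at 224 FPKM in mammospheres and 154 FPKM in bulk cells (log2 0.54), and Uqcr11 at 155 and 124 FPKM in the same order (log2 0.32). Against these, Uqcrh, the hinge protein beside cytochrome c1 (chromosome 4, 115739569 to 115747675), was at 73.2 FPKM in mammospheres and 167 FPKM in bulk cells (log2 -1.18). Uqcrb, the ubiquinone-binding protein (chromosome 13, 67001556 to 67006286), was at 15.1 FPKM in mammospheres and 33.1 FPKM in bulk cells (log2 -1.08). The 5 small subunits thus split into 3 higher and 2 lower, also after centring, whereas the larger proteins stayed near bulk. The core proteins Uqcrc1 and Uqcrc2 had log2 values of -0.03 and -0.15, and the Rieske iron-sulphur protein Uqcrfs1 had -0.15. Uqcrb shares 54.4% of its windows with other genes, but Uqcrh only 4.21% and Uqcr10 none.

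Complex IV, cytochrome c oxidase, had 7 of 14 measured subunits higher in mammospheres and a median of -0.03 (0.16 centred). The subunits that pack against the catalytic core were near bulk: Cox4i1 was at 696 FPKM in mammospheres and 609 FPKM in bulk cells (log2 0.19), Cox5a at 159 and 158 FPKM (log2 0.01), and Cox5b at 139 and 114 FPKM (log2 0.28). Cox7b (298 FPKM in mammospheres and 207 FPKM in bulk cells, log2 0.52) and Cox6b1 (293 and 219 FPKM, log2 0.42) had the largest positive values. Cox6c was the lowest of the abundant subunits, at 60.8 FPKM in mammospheres and 101 FPKM in bulk cells (log2 -0.72). Cox7a2l, which links complexes III and IV into supercomplexes, followed at 99 FPKM in mammospheres and 159 FPKM in bulk cells (log2 -0.68). Neither Cox6c nor Cox7a2l reached 1.5-fold after centring. Ndufa4l2, a subunit known to be induced by hypoxia, was listed at 0.0223 FPKM in mammospheres and 1.23 FPKM in bulk cells (log2 -1.12). That value is set by the 1 FPKM added: with 0.1 FPKM it was -3.44, and with 5 FPKM it was -0.31 and under 1.5-fold. Its abundant relative Ndufa4 was at 150 FPKM in mammospheres and 157 FPKM in bulk cells.

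Subunits that exist as tissue isoforms were present almost entirely in their general form. Cox4i1, Cox6a1, Cox6b1, Cox8a and Cox7b each made up between 99.55% and 100% of their family's summed FPKM in mammospheres and in bulk cells. The lung form Cox4i2, the heart and muscle forms Cox6a2 and Cox8b, and the testis forms Cox6b2, Cox7b2 and Cox8c were all under 1 FPKM in both libraries. Cox7b2 and Cox8c were listed at 0 in both. Cox7a1, the muscle form of Cox7a, was at 1.47 FPKM in mammospheres and 2.64 FPKM in bulk cells. The broadly expressed Cox7a2 made up 59.97% of its family in mammospheres and 46.2% in bulk cells, and Cox7a2l 39.4% and 52.9% in the same order. The 6 low isoforms have no row in the knockdown table, nor has Ndufa4l2.

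Complex V had 12 of 14 subunits (85.7%) lower in mammospheres, where 65.3% of all measured rows were lower. Most of its subunits differed by little, with a median of -0.05 and 11 of 14 within 0.32 of bulk on the log2 scale. After centring its median was 0.13 and 8 of 14 were above 0. In the F1 head, Atp5a1 (alpha) and Atp5b (beta) had log2 values of -0.03 and -0.00. The rotor subunit Atp5c1 (gamma) was at 177 FPKM in mammospheres and 215 FPKM in bulk cells (log2 -0.28), and Atp5e (epsilon) at 141 and 182 FPKM (log2 -0.36). In the peripheral stalk, Atp5j was at 55.4 FPKM in mammospheres and 75.6 FPKM in bulk cells (log2 -0.44), and Atp5o at 119 and 117 FPKM (log2 0.03). The only subunit of complex V past 1.5-fold was Atp5g2 (mm9 chromosome 15, 102493298 to 102501478), at 92.9 FPKM in mammospheres and 209 FPKM in bulk cells (log2 -1.16).

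Atp5g1, Atp5g2 and Atp5g3 encode the same mature c subunit of the rotor ring, with different import sequences. Atp5g3 was at 482 FPKM in mammospheres and 456 FPKM in bulk cells, and Atp5g1 at 71.0 and 85.1 FPKM in the same order. The sum of the 3 genes was 646 FPKM in mammospheres and 750 FPKM in bulk cells. Atp5g2 provided 14.4% of the sum in mammospheres and 27.8% in bulk cells, and Atp5g3 74.6% and 60.8%. Atp5g2 thus had the largest difference of the 3 genes, and it has 35.1% of its windows matched in 2 pseudogenes and no row in the knockdown table.

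**Figure D4:**
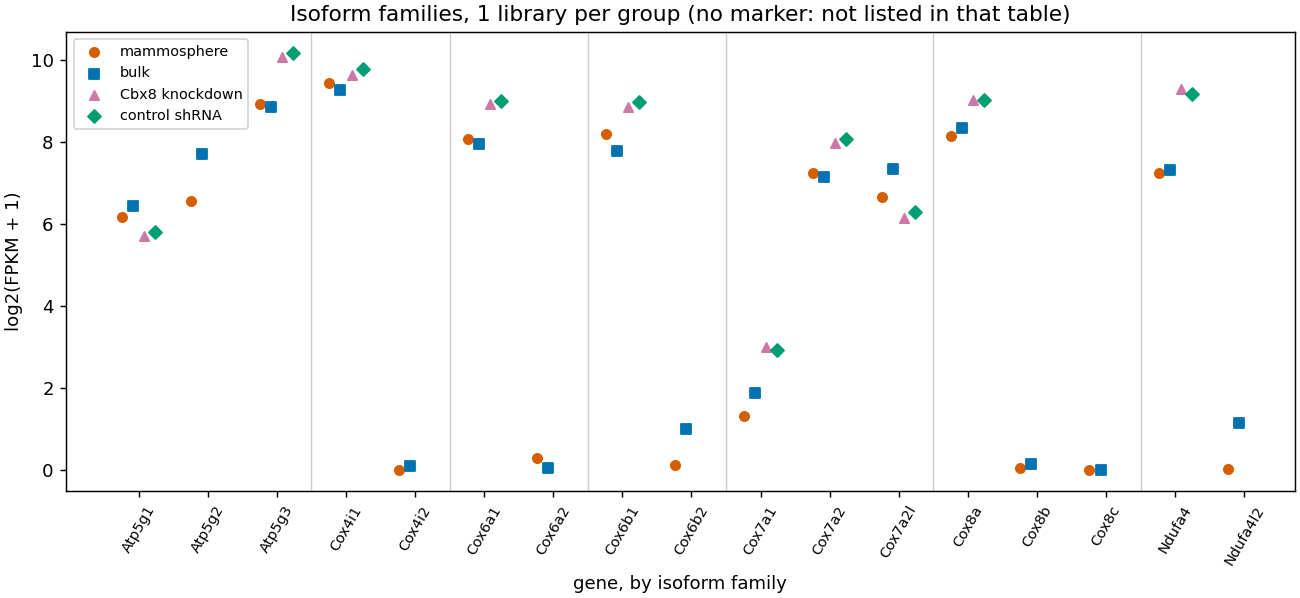
Log2(FPKM + 1) of the members of 7 isoform families in the 4 libraries, with mammosphere left of bulk and Cbx8 knockdown left of control shRNA. Atp5g2 is the abundant isoform that lies apart between mammospheres (92.9 FPKM) and bulk cells (209 FPKM); no marker means that the table has no row for the gene.

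In the Cbx8 knockdown the whole chain stayed within a narrow band around the control. Cbx8 itself was at 1.23 FPKM in the knockdown and 4.74 FPKM in the control, and Myc at 301 FPKM in the knockdown and 511 FPKM in the control. None of 73 measured subunits was 1.5-fold higher, where 2.1% of 10685 measured rows were, and none was 1.5-fold lower, where 2.18% were. Within 0.32 of the control on the log2 scale lay 72 of the 73 subunits (98.6%), as did 83.4% of all measured rows and 87.0% of those at 20 FPKM or above. The median log2 fold change was -0.06, against -0.01 over all measured rows, and 51 of 73 subunits (69.9%) were below 0, as were 51.2% of all rows. In the authors' deposited table every subunit had q = 0.999. The summed luminal markers were at 435 FPKM in the knockdown and 442 FPKM in the control, and the fibroblast markers at 1.72 and 3.76 FPKM in the same order; their part in the result was not tested.

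The only subunit outside that band was Uqcrq, at 411 FPKM in the knockdown and 320 FPKM in the control (log2 0.36). The lowest value was that of Uqcr11, another small subunit of complex III, at 197 FPKM in the knockdown and 234 FPKM in the control (log2 -0.25). Small subunits of complex III thus again held both ends of the range, although Uqcr10 was at 315 FPKM in the knockdown and 331 FPKM in the control (log2 -0.07). Uqcrh was at 287 FPKM in the knockdown and 313 FPKM in the control (log2 -0.13), and Uqcrb at 109 and 116 FPKM (log2 -0.09). Uqcrc1, Uqcrc2 and Uqcrfs1 had log2 values of 0.01, -0.12 and -0.04.

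By complex, the share of subunits below 0 ran from about even to nearly all. Complex I had 21 of 35 below 0 and a median of -0.04, and 4 of its 7 core subunits were above 0, from Ndufs3 and Ndufs7 (both 0.06) to Ndufs1 (0.11). The core subunit Ndufs8 was lowest, at 54.8 FPKM in the knockdown and 62.8 FPKM in the control (log2 -0.19). Ndufb9 was at 205 FPKM in the knockdown and 180 FPKM in the control (log2 0.18), and Ndufc1 at 118 and 132 FPKM (log2 -0.16). In complex II, Sdhb was at 144 FPKM in the knockdown and 132 FPKM in the control (log2 0.12), whereas the anchor Sdhd was at 213 FPKM in the knockdown and 243 FPKM in the control (log2 -0.19). Sdha and Sdhc had log2 values of 0.05 and -0.08.

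Complexes III, IV and V leaned lower in the knockdown, each by a small amount. In complex III, 6 of 8 subunits were below 0, with a median of -0.08. In complex IV, 10 of 13 subunits were below 0, with a median of -0.11. Cox7b was at 156 FPKM in the knockdown and 178 FPKM in the control (log2 -0.19), Cox5b at 25.6 and 28.5 FPKM (log2 -0.15) and Cox4i1 at 790 and 870 FPKM (log2 -0.14). Ndufa4 went the other way, at 620 FPKM in the knockdown and 571 FPKM in the control (log2 0.12). In complex V, 12 of 13 subunits were below 0, with a median of -0.07. Atp5o was lowest, at 213 FPKM in the knockdown and 240 FPKM in the control (log2 -0.17), followed by Atp5b (log2 -0.15), and Atp5f1 of the stalk was the 1 above 0 (log2 0.04). The c-ring genes Atp5g1 and Atp5g3 had log2 values of -0.10 and -0.09. With no replicate, differences of this size cannot be told apart from the spread between cultures of one kind.

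The 2 comparisons, which share no library, did not order the subunits alike. Across the 73 subunits in both tables, Pearson's r between the log2 fold changes was 0.0871 and Spearman's rho 0.00676, as a description over genes, which are not independent. Of the 11 subunits 1.5-fold lower in mammospheres, 9 had a row in the knockdown table. Their knockdown values ran from -0.15 to 0.11 with a median of -0.13, against -0.06 over all 73 subunits. Of the 9, 8 were below 0, as were 51 of all 73 subunits (69.9%). Uqcr10, higher in mammospheres, was at -0.07 in the knockdown.

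The 9 rows that share a prefix without being subunits were all under 20 FPKM in every library. Ndufaf1 to Ndufaf4, Sdhaf1 and Sdhaf2, which build complexes I and II, lay between 3.32 and 12.5 FPKM in mammospheres and between 4.59 and 11.8 FPKM in bulk cells. With 1 FPKM added to each value none of the 9 reached 1.5-fold in either comparison. Among all measured rows 30.7% were lower and 9.86% higher in mammospheres, and 2.18% lower and 2.1% higher in the knockdown. The largest difference upward in mammospheres was that of Cox4nb, at 13.9 FPKM, against 9.57 FPKM in bulk cells (log2 0.50). As plain ratios, Ndufaf4 was 1.65-fold lower in mammospheres (3.32 FPKM, against 5.46 FPKM in bulk cells) and Atp5s 1.64-fold lower (2.07 FPKM, against 3.39 FPKM in bulk cells). In the knockdown the extremes were Ndufaf3, at 11.6 FPKM in the knockdown and 9.40 FPKM in the control (log2 0.28), and Atp5sl, at 5.21 and 6.68 FPKM (log2 -0.31).

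Lists of chain assembly genes, most of them outside the prefixes, were also followed. Of 10 complex I assembly factors, 6 were higher in mammospheres (median 0.05), and Tmem186 was at 8.19 FPKM in mammospheres and 1.97 FPKM in bulk cells (log2 1.63). Of 14 complex IV assembly genes, 2 (14.3%) were 1.5-fold higher and 1 (7.14%) lower in mammospheres, where 9.86% of all measured rows were higher and 30.7% lower (median -0.01). Cox17, the copper chaperone, was at 92.9 FPKM in mammospheres and 52.0 FPKM in bulk cells (log2 0.83), and Cox16 at 10.0 and 15.8 FPKM (log2 -0.61). In the knockdown all 5 complex V assembly and regulatory genes were below 0 (median -0.14), as were 51.2% of all measured rows. The lowest of the 5 was Atpif1, the ATPase inhibitor, at 172 FPKM in the knockdown and 211 FPKM in the control (log2 -0.29).

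Of 18 genes for ubiquinone synthesis, cytochrome c and other electron donors, 3 (16.7%) were 1.5-fold lower in mammospheres and none higher, where 30.7% of all measured rows were lower and 9.86% higher (median -0.00, against -0.24 over all rows). Coq10b, a ubiquinone-binding protein, was at 1.90 FPKM in mammospheres and 63.0 FPKM in bulk cells (log2 -4.46), far outside the range of the subunits. Etfdh, which feeds electrons from fatty acid oxidation into ubiquinone, was at 9.82 FPKM in mammospheres and 22.5 FPKM in bulk cells (log2 -1.12). In the knockdown Coq10b was at 29.5 FPKM, against 20.0 FPKM in the control (log2 0.54).

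Among 16 regulators of mitochondrial biogenesis and mitochondrial DNA, 4 (25%) were 1.5-fold lower and 1 (6.25%) higher in mammospheres (median -0.11). These shares were near those of all measured rows, 30.7% lower and 9.86% higher. Tfb2m, a mitochondrial transcription factor, was at 4.64 FPKM in mammospheres and 13.1 FPKM in bulk cells (log2 -1.32), and Polg2, the accessory subunit of the mitochondrial DNA polymerase, at 2.44 and 5.63 FPKM (log2 -0.95). In the knockdown 14 of the 16 (87.5%) were below 0 (median -0.19), as were 51.2% of all measured rows. None of the 16 passed 1.5-fold, where 2.1% of all measured rows were higher and 2.18% lower. Ppargc1b, a coactivator of respiratory genes, was at 3.38 FPKM in the knockdown and 5.36 FPKM in the control (log2 -0.54), and Peo1, the mitochondrial DNA helicase, at 15.1 and 20.0 FPKM (log2 -0.38).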

How the data were processed

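RNA-seq values of 4 libraries, 1 per group, were compared in pairs. The authors deposited a Cuffdiff table per pair with FPKM per gene and the authors' q-value for each row. The build (mm9) and the tools, TopHat 1.4.0, Cufflinks 1.3.0, Cuffdiff 0.0.7 and FastQC 0.10.0, are named without settings, per the submitters' processing notes. The deposited FPKM values show no whole-read steps, so depth is unknown. No row of the knockdown table is at 0, so a gene without reads may lack a row there, and its last 2 lines, tallies, were not used.

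Fold changes were computed here within a table as log2((FPKM + 1)/(FPKM + 1)), which understates changes of low genes, for rows that had not failed and reached 1 FPKM in either library. Called means at least 1.5-fold. No test was possible. Named subunits are, per complex, up to 3 with the largest differences each way at 5 FPKM or above, core subunits (not all are reported here), isoforms, called or set-aside members and, from each further list, the 2 with the largest differences. Members and lists were chosen with earlier results of these data known.

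Windows of 100 nt came from GENCODE M21 (GRCm38) protein-coding transcripts and matched another gene's transcript at up to 2 mismatches. Promoters came from RefSeq (GRCm38.p6); no mm9 coordinate was converted. Alternatives were other pseudocounts, minimums, scalings, status, members and fold limits. Steps were tested on simulated data. Python 3.11.15, pandas 2.3.3, numpy 2.4.6 and matplotlib 3.10.9 were used.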

Additional observations from a re-analysis of the deposited data

How the results depend on the processing

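With 1 library per group, neither a left-out replicate nor a test could be had, and no sample spread sets the limits used. No paired analysis was possible because each group is 1 library. Of 204 alternative values of the main results, 183 stayed within 0.1 on the log2 scale or 1.5 times the count, and 21 did not. Of 1718 alternative values of single subunits, 1561 stayed so close, 157 moved further and no called value changed sign. Calls themselves did change: 9 such values lost the 1.5-fold call and 19 gained one, all in the mammosphere comparison and all but 2 under the other scalings. The 2 were Ndufa4l2, lost with 5 FPKM added (-0.31), and Cox7a1, gained with 0.1 FPKM added (-0.80).

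In the mammosphere comparison, centring on the median row moved the subunit median to 0.16. The medians of complexes I to V moved to 0.17, 0.21, 0.10, 0.16 and 0.13. On that scale 7 subunits were 1.5-fold higher and 8 lower, where 15.0% of all measured rows were higher and 23.4% lower. Equal upper quartiles, a shift of 0.28, moved the subunit median to 0.29 and those of complexes I to V to 0.30, 0.34, 0.23, 0.29 and 0.26, with 13 subunits higher and 6 lower; calls over all rows were then 47.6% higher. Centring adds a constant to every value. Equal upper quartiles do not: the 0.28 stands for all rows together, and single genes moved by differing amounts. Ndufc2 went from -0.78 to -0.47, for example, and Cox6b1 from 0.42 to 0.73. A limit of 0.32 on the log2 scale gave 8 higher and 21 lower of 76 subunits, and 37.0% of all measured rows lay within it. A 2-fold limit gave 0 higher and 6 lower, where 411 of 11603 measured rows were higher and 2002 lower. Leaving out subunits with windows matched elsewhere, an alternative chosen after seeing the data, gave 6 lower among 48 subunits. Among all measured rows 30.7% were 1.5-fold lower. In the knockdown comparison the limit of 0.32 gave 1 higher, and 83.4% of all measured rows lay within it. Counting Ndufa4 and Ndufa4l2 with complex I, also chosen after seeing the data, moved no median past the tolerance.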

Other observations

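Other mitochondrial gene groups, also chosen with earlier results known, were counted in the same way, where 30.7% of all measured rows were 1.5-fold lower in mammospheres and 9.86% higher. Of 76 mitochondrial ribosomal protein genes, 14 (18.4%) were 1.5-fold lower and 1 (1.32%) higher in mammospheres (median log2 -0.15). Mrps28 was at 5.76 FPKM in mammospheres and 12.4 FPKM in bulk cells, and Mrpl52 at 45.4 and 89.7 FPKM in the same order. In the knockdown the 75 measured genes had a median of -0.00, and 38 (50.7%) were below 0, as were 51.2% of all measured rows. None of the 75 passed 1.5-fold, where 2.1% of all measured rows were higher and 2.18% lower. The lowest was Mrpl37, at 35.1 FPKM in the knockdown and 48.3 FPKM in the control (log2 -0.45). Of 20 import genes, 1 (5.0%) was 1.5-fold lower in mammospheres, the outer membrane receptor Tomm22, at 34.7 FPKM in mammospheres and 62.2 FPKM in bulk cells.

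Of 14 citric acid cycle genes, 1 (7.14%) was 1.5-fold lower in mammospheres (median 0.04): Suclg2, a succinyl-CoA ligase subunit, at 35.4 FPKM in mammospheres and 57.8 FPKM in bulk cells. In the knockdown Idh2, the mitochondrial isocitrate dehydrogenase, was at 93.5 FPKM, against 121 FPKM in the control (log2 -0.37). Of 6 genes listed for nucleotide exchange, 4 (66.7%) were lower in mammospheres, as were 65.3% of all measured rows, and Vdac2 and Vdac3 were higher. Only 1 (16.7%) was 1.5-fold lower, where 30.7% of all measured rows were. The largest differences were those of Slc25a5 (275 FPKM in mammospheres and 414 FPKM in bulk cells, log2 -0.59) and Slc25a4 (218 and 319 FPKM, log2 -0.55). Both are adenine nucleotide carriers, which exchange ADP for the ATP made by complex V. Cycs, cytochrome c, named after its values were seen, was at 26.9 FPKM in mammospheres and 40.2 FPKM in bulk cells, but at 1.497 FPKM in the knockdown and 1.24 FPKM in the control.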
